A study of Mus musculus with 4 samples.

Results

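The transcripts of 10 lysosomal proteases were followed in primary mouse aortic smooth muscle cells with floxed or with normal Atg7 alleles. The proteases were cathepsins A, B, D, H, K, L, S and Z (Ctsa, Ctsb, Ctsd, Ctsh, Ctsk, Ctsl, Ctss, Ctsz), legumain (Lgmn) and tripeptidyl peptidase 1 (Tpp1). All probes that the array files name for these genes, other than control spots, were taken. This gave 16 probes of 41174, of which 15 passed a filter for signal above background. All 10 genes were measured, among 12367 genes tested. One genotype was Atg7F/F SM22α-Cre+, homozygous for a floxed Atg7 allele, and the other was Atg7+/+ SM22α-Cre+, with both normal alleles. Both carry Cre driven by SM22α, a smooth muscle promoter, and both are of the strain labelled C57LB/6. Cells were cultured with 10% serum and used between passages 4 and 10, and the age of the animals is not stated. Each genotype had 2 biological replicates. An Atg7F/F and an Atg7+/+ extract of the same number shared 2 Agilent arrays with exchanged dyes, so 4 arrays hold 8 channels.

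Lysosomal proteases cut proteins at acid pH after autophagy or endocytosis has delivered them. Most are made as inactive precursors, sorted to lysosomes with the help of mannose 6-phosphate tags and activated there by cleavage. Atg7 activates the ubiquitin-like proteins that build autophagosomes, so it acts upstream of the step at which these enzymes meet autophagic cargo. Several of their genes are known targets of TFEB, a transcription factor that binds the E-box core CACGTG. Arterial smooth muscle also secretes some cathepsins, and cathepsins K, L and S can degrade collagen or elastin.

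Every probe was a 60-base oligonucleotide. The 4 shown here were taken as coding from their open reading frames and the known proteins, without an annotation of the build, and the values of their genes are described below. In the Ctsk and Ctsz probes the capitals mark bases around the codons of the catalytic histidine and asparagine, which with a cysteine form the active site of papain-type cathepsins. The Ctsk and Ctsd probes map to 245 and 154 bases of genome, so each spans an exon junction, across an intron of 185 and 94 bases. The files give these mm9 coordinates. The Ctsk probe is at chr3:95310647-95310891 on the plus strand, and the Ctsz probe at chr2:174254084-174254143 on the minus strand. The Ctsd probe is at chr7:149562628-149562781 on the minus strand, and the Ctsa probe at chr2:164664388-164664447 on the plus strand.
Ctsk: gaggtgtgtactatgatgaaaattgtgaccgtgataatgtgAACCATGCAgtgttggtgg
Ctsz, probe 2: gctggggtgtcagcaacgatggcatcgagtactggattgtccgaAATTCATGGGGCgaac
Ctsd, probe 2: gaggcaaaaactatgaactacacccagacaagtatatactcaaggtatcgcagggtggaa
Ctsa, probe 1: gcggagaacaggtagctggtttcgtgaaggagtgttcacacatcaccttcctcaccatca

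All 10 protease genes had a mean log2 ratio of Atg7F/F over Atg7+/+ below 0. The differences were small and none passed the test. These genes were chosen with earlier results of these data known. In replicate 1 all 10 were lower, where 49.9% of all genes tested were, but in replicate 2 only 6, where 48.8% were. The mean log2 ratios ran from -0.43 for Tpp1 to -0.06 for Ctss, with a median of -0.18. Ctss was the highest of the 10, and 28.5% of all genes tested had a lower ratio than it. The median of all 12367 genes tested was 0.00 (0.0034). The test was limma's moderated test of the 2 dye-averaged ratios against 0, adjusted by Benjamini-Hochberg over all genes, and it called 0 of 12367 genes (0%) at an adjusted p below 0.05. Without adjustment 369 genes (2.98%) were below 0.05. Tpp1 and Ctsa were below that unadjusted level, as were 1.64% of all genes in the lower direction. On all 4 arrays 4 of the 10 genes were lower and 0 were higher, where 9.95% of all genes tested were lower and 10.6% higher on all 4. The 4 were Tpp1, Ctsa, Ctsb and Ctsh. With arrays centred on their median in place of loess, 0 of the 10 were lower on all 4 arrays, where 2.14% of all genes were. The median of the 10 was then -0.08, beside 0.04 over all genes tested. The precision of every value is limited by the 2 extracts per genotype, since dye-swapped arrays share their extracts.

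The RNA came from bulk cultures, in which fewer expressing cells and less RNA per cell cannot be told apart. The share of spots well above background was 43.3% to 45.5% by channel, and 0 spots were saturated. Atg7, which checks the labels, had a log2 ratio of -1.22 ± 0.07 (SD, n = 2), 2.33-fold lower in Atg7F/F cells, with arrays between -1.57 and -0.96 and an adjusted p of 0.938 by limma. The labels do not name the floxed exon, so it is unknown if the probe covers deleted sequence and in what share of cells the allele was recombined. Raw signals below are mean spot brightness in scanner units with no background subtracted. In each extract the Cy5 signals of these probes were the higher ones, so signals are compared within a dye. The genotypes in 1 dye are then on different arrays, and these raw signals are not normalized between arrays. By the probe tested, genotypes overlapped over both replicates of a dye, except for Ctsd and Ctsh in Cy3 and Ctsz in Cy5. In those, both Atg7F/F signals were below both Atg7+/+ signals. Ratios are loess-normalized log2 values of Atg7F/F over Atg7+/+, and a value ± SD is the mean of 2 replicates, each averaged over its dye swap.

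**Figure D1:**
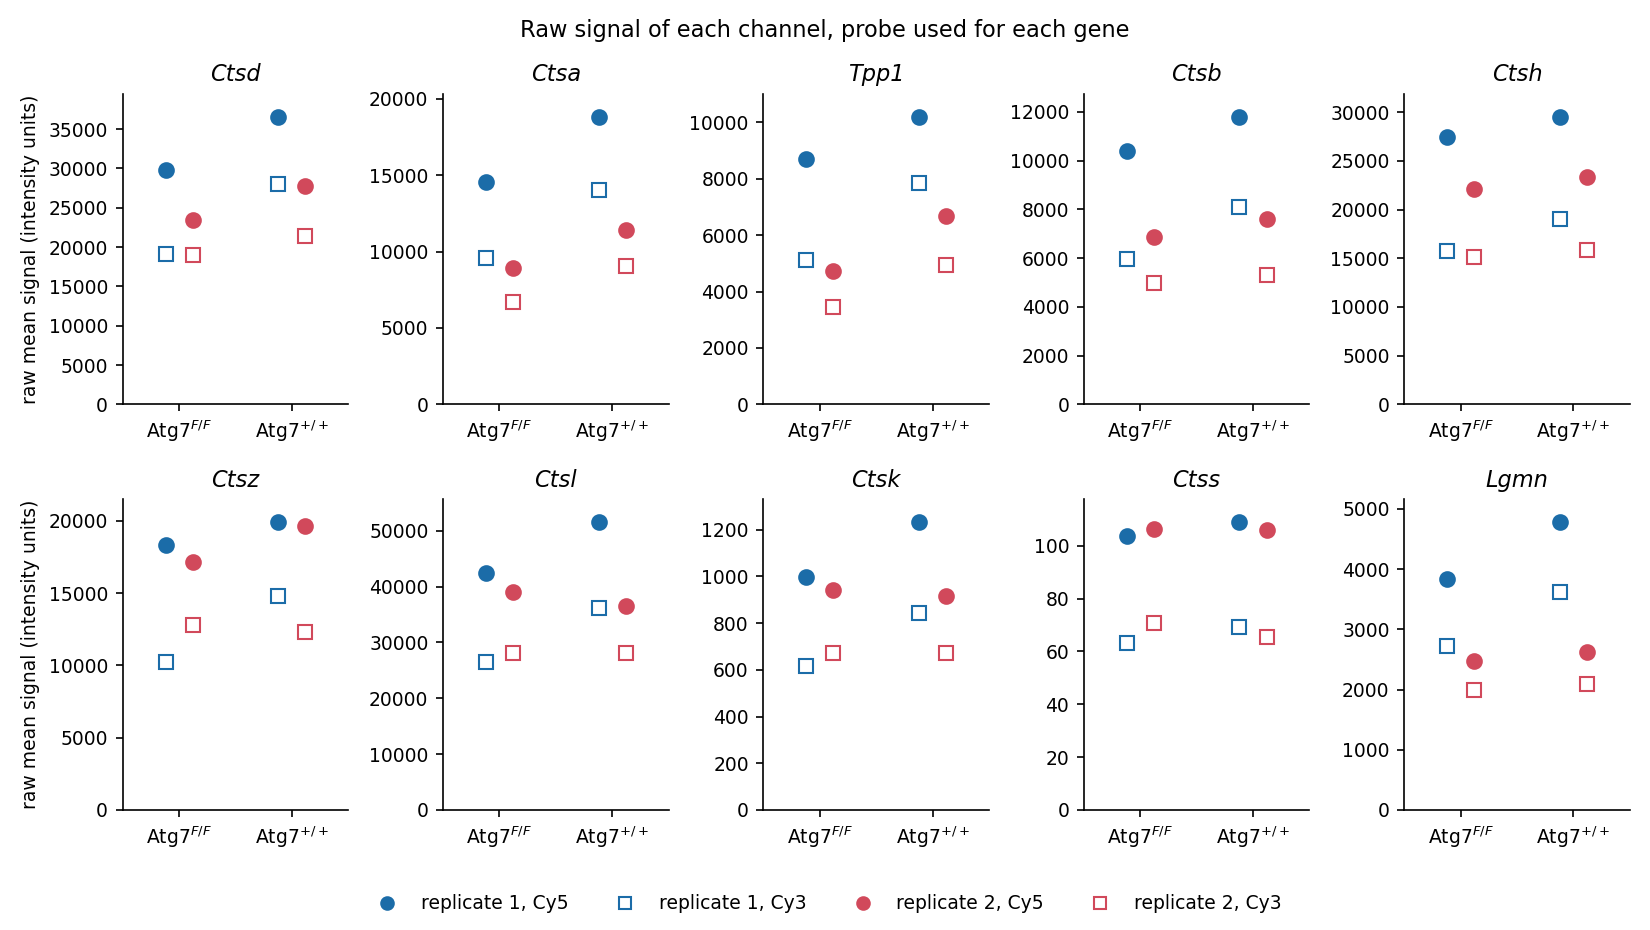
Raw mean signal in scanner units (vertical axes, each from 0) of the probe used for each protease gene, in Atg7F/F (left) and Atg7+/+ (right) cells; filled circles are Cy5 and open squares Cy3 channels, blue is replicate 1 and red replicate 2. For Tpp1, Ctsa, Ctsb, Ctsd, Ctsh and Lgmn both dyes of both replicates are lower in Atg7F/F, and for Ctsk, Ctsl and Ctss those of replicate 1 alone are. Signals of the genotypes in 1 dye come from different arrays and are not normalized.

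Tpp1, a serine peptidase that removes tripeptides from the free amino end of proteins and whose human gene is mutated in a childhood form of neuronal ceroid lipofuscinosis, had the lowest mean ratio of the group. Its raw Cy5 signals were 8698 and 4742 in Atg7F/F replicates 1 and 2, against 10206 and 6695 in Atg7+/+ replicates 1 and 2. The Cy3 signals were 5135 and 3469 in Atg7F/F, against 7866 and 4947 in Atg7+/+ cells. Within each replicate and dye the Atg7F/F signal was the lower one, while the genotypes overlapped across replicates, because replicate 2 was dimmer than replicate 1 in both. The arrays of replicate 1 had log2 ratios of -0.46 and -0.43, those of replicate 2 -0.40 and -0.46. They averaged -0.43 ± 0.01, or 1.35-fold lower, with a 95% interval from -0.70 to -0.17 by limma. The unadjusted p from limma was 0.0124, the 70th smallest of all genes tested, and the adjusted p was 1.00 (0.9998).

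The second Tpp1 probe did not give the same value. It lies 1201 bases further along the transcribed strand, at 112893525 to 112893584 of chromosome 7, against 112894726 to 112894785 for the first. It was well above background in all 8 channels but dim, with raw signals of 142 and 136 in Cy5 and 90.4 and 95.3 in Cy3 in Atg7F/F, against 159 and 130.0 in Cy5 and 98.8 and 96.9 in Cy3 in Atg7+/+ cells. Local background at this spot was between 76 and 83 in Cy5 and between 45 and 48.5 in Cy3. Its mean log2 ratio was -0.09 ± 0.19, with -0.22 in replicate 1 and 0.05 in replicate 2. The average of both Tpp1 probes was -0.26, so the size of the Tpp1 difference rests on its brighter probe.

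Ctsa, the carboxypeptidase that also protects lysosomal beta-galactosidase and neuraminidase from breakdown, had a mean ratio near that of Tpp1. The first of its probes had raw Cy5 signals of 14590.3 and 8956 in Atg7F/F replicates 1 and 2, against 18846 and 11392 in Atg7+/+ replicates 1 and 2. The Cy3 signals were 9579 and 6720 in Atg7F/F, against 14003 and 9052 in Atg7+/+ cells. Within each replicate and dye the Atg7F/F signal was again the lower one. Replicate 1 had log2 ratios of -0.58 and -0.37 and replicate 2 of -0.42 and -0.24, with a mean of -0.40 ± 0.10, or 1.32-fold lower, and a limma interval from -0.69 to -0.12. By limma, p was 0.0203 before and 1.00 (0.9998) after adjustment. The second probe, 401 bases downstream, gave -0.38 ± 0.17 and was lower on all 4 arrays as well. Another Ctsa probe, 2045 bases downstream of the first, was not well above background in any channel.

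Ctsd, the main aspartic protease of lysosomes, had an average ratio between those of Ctsa and the other members. Its first probe, at 149561962 to 149562021 of chromosome 7, had raw Cy5 signals of 29845 and 23407 in Atg7F/F, against 36608 and 27788 in Atg7+/+ replicates 1 and 2. The Cy3 signals were 19091 and 18993 in Atg7F/F, against 28028 and 21387 in Atg7+/+ cells. Within each replicate and dye Atg7F/F was lower. The log2 ratios depended on the dye, with -0.60 and -0.39 where Atg7F/F was in Cy5 and -0.29 and 0.02 where it was in Cy3. Averaged over the dyes, the mean was -0.32 ± 0.18, with an interval from -0.66 to 0.03 and an unadjusted p of 0.0616 from limma. The second probe, 666 bases upstream across an exon junction, gave -0.41 ± 0.05 and was lower on all 4 arrays, with -0.72 and -0.55 in one dye orientation and -0.16 and -0.19 in the other.

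**Figure D2:**
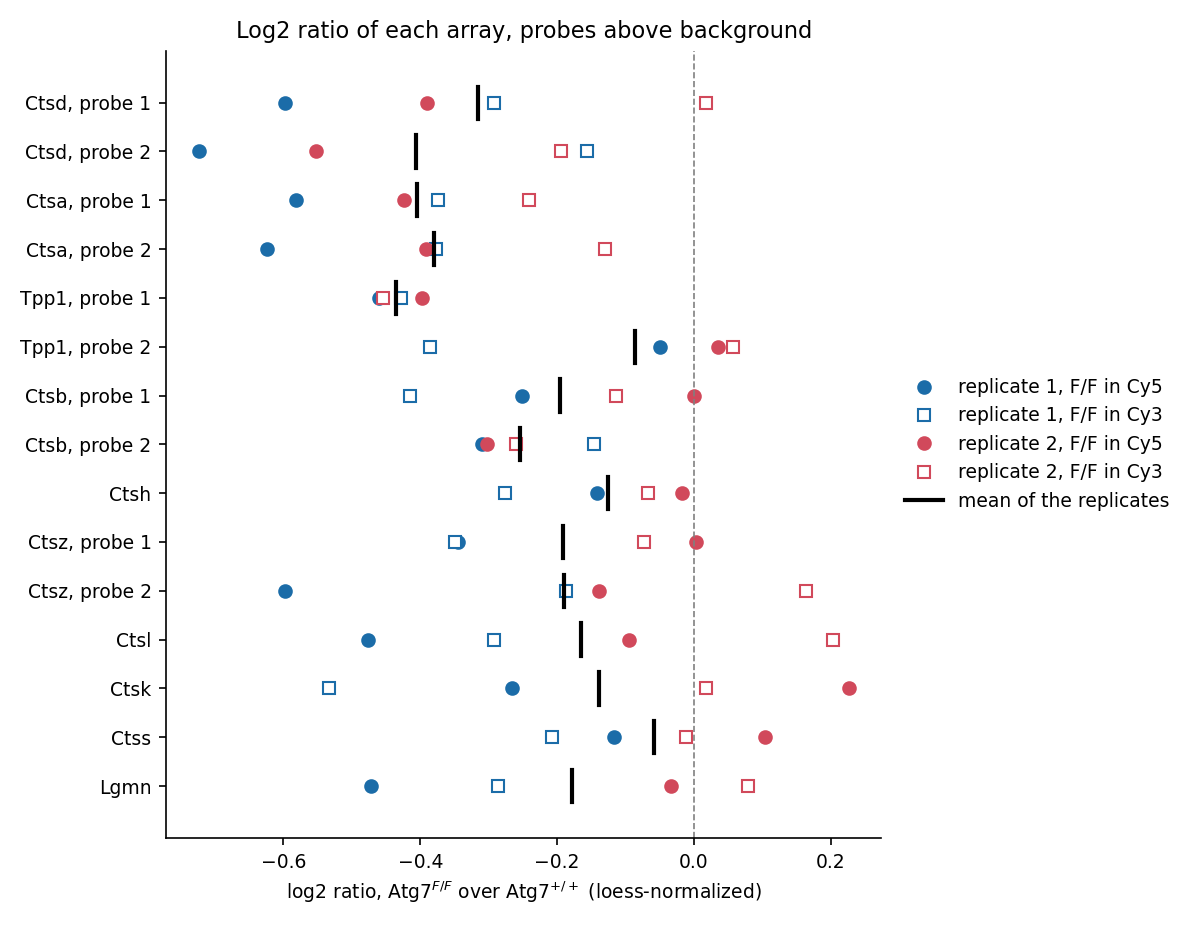
Log2 ratio of Atg7F/F over Atg7+/+ (horizontal axis) on each of the 4 arrays for the 15 probes above background; circles are arrays with Atg7F/F in Cy5, squares with Atg7F/F in Cy3, blue is replicate 1, red replicate 2, and the black bar is the mean. The first Tpp1 probe runs from -0.46 to -0.40 over the arrays, whereas the second Ctsd probe runs from -0.72 to -0.16, the arrays with Atg7F/F in Cy5 lying lowest.

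Among the cysteine cathepsins that trim protein ends, Ctsb, a dipeptidyl carboxypeptidase that also cuts inside chains, had raw Cy5 signals of 10381 and 6867 in Atg7F/F, against 11809 and 7625 in Atg7+/+ replicates 1 and 2. The Cy3 signals were 5960.2 and 4967 in Atg7F/F, against 8096 and 5318 in Atg7+/+ cells. The mean log2 ratio was -0.20 ± 0.20, with -0.25 and -0.41 in replicate 1 but -0.00015 and -0.11 in replicate 2, so 1 of its 4 lower arrays was lower by next to nothing. A second probe, 2225 bases downstream, was dim and gave -0.25 ± 0.04, lower on all 4 arrays. Ctsh, an aminopeptidase, had raw Cy5 signals of 27509 and 22128 in Atg7F/F, against 29562 and 23316 in Atg7+/+ replicates 1 and 2. Its Cy3 signals were 15741 and 15125 in Atg7F/F, against 19053 and 15834 in Atg7+/+ cells. The mean log2 ratio was -0.13 ± 0.12, and every array was below 0. Under median centring of the arrays in place of loess it was 0.0022, so its direction depended on the normalization. The median of all genes tested was 0.04 under that centring.

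Ctsz, a carboxypeptidase that removes single residues, had 2 probes with close means and differing arrays. The first had raw Cy5 signals of 18335 and 17131 in Atg7F/F, against 19922 and 19662 in Atg7+/+ replicates 1 and 2, and Cy3 signals of 10271 and 12772 in Atg7F/F, against 14835 and 12334 in Atg7+/+ cells. The Cy3 pair of replicate 2 was thus the exception to lower signals in Atg7F/F. The mean was -0.19 ± 0.22 by this probe and -0.19 ± 0.29 by the second, shown above with its catalytic codon. Replicate 1 gave -0.35 and -0.39 by the probes and replicate 2 gave -0.03 and 0.01.

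The endopeptidases Ctsl, Ctsk and Ctss had means below 0 in replicate 1 only. Ctsl, a broad lysosomal endopeptidase, had raw Cy5 signals of 42507 and 39071 in Atg7F/F, against 51547 and 36606 in Atg7+/+ replicates 1 and 2, and Cy3 signals of 26477 and 28144 in Atg7F/F, against 36188 and 28114 in Atg7+/+ cells. In replicate 2 the Atg7F/F signal was the higher one in both dyes. The log2 ratios averaged -0.38 in replicate 1 and 0.05 in replicate 2, which made -0.17 ± 0.31 with an interval from -0.63 to 0.29. Ctsk, the collagen-degrading cathepsin best known from osteoclasts, had raw Cy5 signals of 998 and 939 in Atg7F/F, against 1232 and 916 in Atg7+/+ replicates 1 and 2, and Cy3 signals of 616 and 674 in Atg7F/F, against 843 and 673 in Atg7+/+ cells. Its ratios were -0.27 and -0.53 on the arrays of replicate 1 and 0.23 and 0.02 on those of replicate 2, which made -0.14 ± 0.37, the widest spread of the 10 genes. The interval from -0.66 to 0.38 leaves room for a difference in either direction.

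Ctss, an endopeptidase active near neutral pH that cuts the MHC class II invariant chain in antigen-presenting cells, was close to background. Its raw Cy5 signals were 104 and 106 in Atg7F/F, against 109 and 106 in Atg7+/+ replicates 1 and 2. The Cy3 signals were 63.0 and 70.8 in Atg7F/F, against 69.3 and 65.6 in Atg7+/+ cells. Local background was between 75 and 87 in Cy5 and between 44 and 48 in Cy3, and the scanner software still marked the spot as well above background in all 8 channels. The mean log2 ratio was -0.06 ± 0.15, with -0.23 where no offset was added and -0.03 where no background was subtracted.

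Lgmn, which cuts after asparagine and converts several cathepsins to their chain-split forms, had raw Cy5 signals of 3831 and 2468 in Atg7F/F, against 4780 and 2615 in Atg7+/+ replicates 1 and 2. The Cy3 signals were 2724 and 1990.3 in Atg7F/F, against 3613 and 2087 in Atg7+/+ cells. The mean log2 ratio was -0.18 ± 0.28, with -0.38 in replicate 1 and 0.02 in replicate 2.

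The replicates therefore differed in how far the group was shifted. In replicate 1 all 10 genes were lower in Atg7F/F cells, where 49.9% of all genes tested were, and the median of the 10 was -0.38. In replicate 2 there were 6 lower genes, where 48.8% of all genes were, and the median was -0.04. In both replicates 6 genes were lower, where 22.1% of all genes were: Tpp1, Ctsa, Ctsd, Ctsb, Ctsz and Ctsh. By the probe tested, Tpp1 and Ctsa alone had ratios under -0.30 in both. Whether the replicates differ beyond chance was not tested, since each genotype pair has 1 extract per replicate. Across the 12367 genes the ratios of the replicates correlated at -0.10, against 0.69 and 0.81 between the dye-swapped arrays of replicates 1 and 2, which share their extracts.

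**Figure D3:**
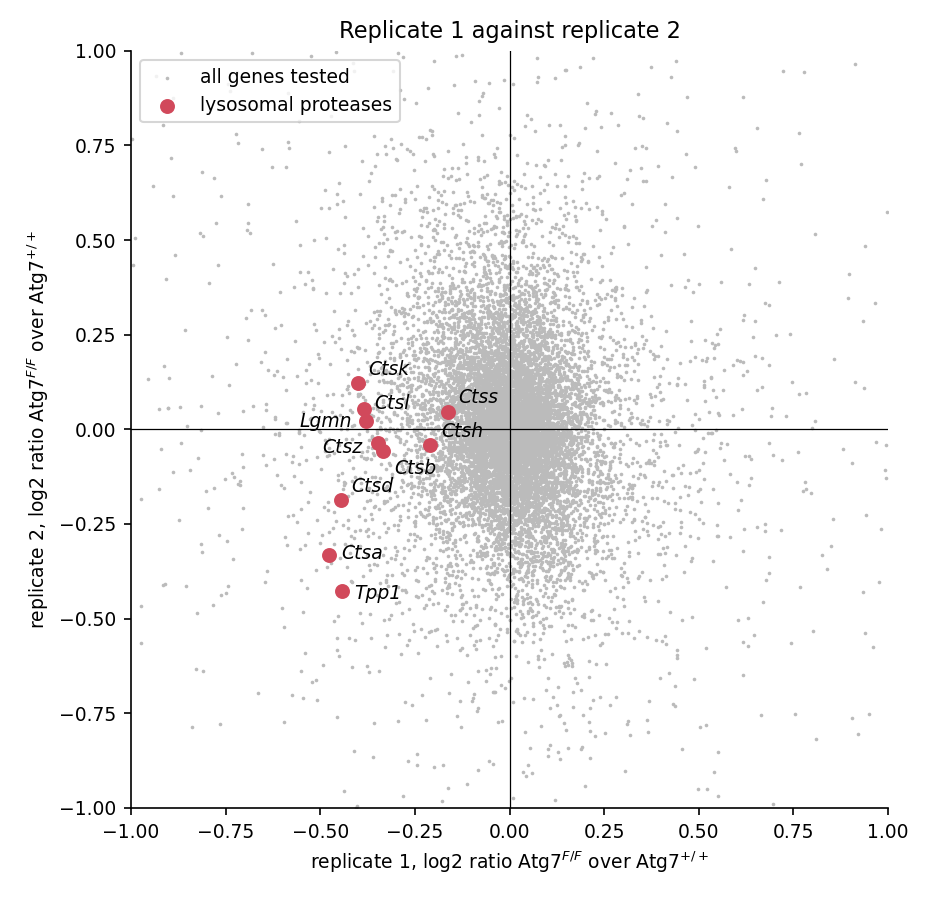
Log2 ratio of Atg7F/F over Atg7+/+ in replicate 1 (horizontal) against replicate 2 (vertical), with 12103 of the 12367 genes tested in grey and the 10 protease genes in red; 264 genes beyond 1 log2 unit are not drawn. The proteases all lie left of 0, between -0.48 and -0.16, but spread from -0.43 to 0.12 on the vertical axis.

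The dye term, the difference between the dye-swapped arrays divided by 2, was smaller than the genotype ratio in replicate 1 for all 10 genes by the probe tested. In replicate 2 it was the larger one for Ctsd, Ctsl, Ctss, Ctsz and Lgmn. For the first Ctsd probe it was -0.15 and -0.20 in replicates 1 and 2, and for the second -0.28 and -0.18. For Ctsk it was 0.13 and 0.10, and for Tpp1, by its first probe, -0.02 and 0.03. Over the 10 genes its median size was 0.09 in replicate 1 and 0.06 in replicate 2, beside 0.06 in each replicate over all genes. The swap averages such a term out of the ratio of each replicate.

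The upstream sequences of the members were searched for the E-box core CACGTG and the longer TCACGTGA. Each reads the same on both strands, and the longer contains the shorter. Windows were the 250 bases before each RefSeq transcript start on GRCm38.p6, of which 10 belonged to 8 members, without Ctsb and Ctsh. CACGTG was found in 4 of these windows, those of Ctsa, Ctsd, Ctsl and Lgmn, and in 6.02% of all 32851 windows. TCACGTGA was found in the Ctsa and Ctsd windows and in 0.785% of all. The windows of Tpp1, Ctsk, Ctss and Ctsz, and one start each of Ctsa and Lgmn, held neither. Sequence outside the windows, such as that after the start, was not searched. A match describes the letters and is not taken as a binding site. The Ctsa window with a match, chr2:164833523-164833772 on the plus strand, has CACGTG starting 12 bases before the transcript start. The Ctsd window, chr7:142387828-142388077 on the minus strand, has it at 245 and 98 bases before the start. Capitals mark the motif.
Ctsa: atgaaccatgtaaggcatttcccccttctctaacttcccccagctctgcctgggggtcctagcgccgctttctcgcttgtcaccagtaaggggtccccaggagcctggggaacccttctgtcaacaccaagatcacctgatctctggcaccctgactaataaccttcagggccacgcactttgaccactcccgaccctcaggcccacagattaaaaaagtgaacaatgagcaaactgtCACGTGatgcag
Ctsd: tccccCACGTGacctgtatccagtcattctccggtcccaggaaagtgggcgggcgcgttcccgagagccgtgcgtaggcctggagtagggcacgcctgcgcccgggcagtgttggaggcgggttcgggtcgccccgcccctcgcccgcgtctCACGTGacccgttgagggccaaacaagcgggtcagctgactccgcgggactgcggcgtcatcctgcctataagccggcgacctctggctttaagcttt
With the motif, Ctsa and Ctsd had mean ratios of -0.40 and -0.32 and Ctsl and Lgmn -0.17 and -0.18. Without it in their windows, Tpp1 had -0.43, Ctsz -0.19, Ctsk -0.14 and Ctss -0.06. A link between motif and ratio was not tested.

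Genes that act with the proteases were taken from lists, in which 0 genes passed the adjusted test. Of 10 other lysosomal and endosomal peptidases 8 were measured, with a median log2 ratio of -0.04. On all 4 arrays 2 were lower and 1 higher, where 9.95% of all genes tested were lower and 10.6% higher. Dpp7, a dipeptidyl peptidase, had -0.58 ± 0.56, Cpq, a carboxypeptidase, -0.27 ± 0.16 and Prcp, a prolylcarboxypeptidase, 0.22 ± 0.12. The measured cathepsins of this list were Ctsc at 0.12 ± 0.49, Ctsf at -0.06 ± 0.37, Ctso at -0.02 ± 0.02 and Ctsw at 0.01 ± 0.21. Scpep1, a carboxypeptidase, had -0.22 ± 1.36. This list thus held genes on both sides of 0. Its division from the 10 proteases was made with earlier results of these data known. The 9 cathepsins that rodents express in the placenta (Cts3, Cts6, Cts7, Cts8, Ctsj, Ctsm, Ctsq, Ctsr and Ctsll3), relatives of Ctsl, were not well above background in any channel.

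Partners and inhibitors of the proteases were measured too. Glb1 and Neu1, the beta-galactosidase and neuraminidase that Ctsa protects, had -0.41 ± 0.25 and -0.24 ± 0.24. Grn, the precursor of granulins that cathepsins release, had -0.40 ± 0.18 and Psap, the saposin precursor that Ctsd cleaves, -0.37 ± 0.01. The ratios of both depended on the dye. Psap had -0.63 and -0.50 where Atg7F/F was in Cy5 and -0.11 and -0.22 where it was in Cy3. For Grn these were -0.78 and -0.56 against -0.28 and 0.01. All 4 measured partners had means below 0 in both replicates, where 22.1% of all genes tested did. On all 4 arrays 2 of them were lower, where 9.95% of all genes tested were lower and 10.6% higher. Cd74, the invariant chain, did not pass the filter. Of 8 listed cathepsin inhibitors 4 were measured. The cystatins Cst6 (-0.53 ± 0.34), Cstb (-0.45 ± 0.44) and Cst3 (-0.18 ± 0.09) were lower on all 4 arrays, as were 9.95% of all genes tested. The serpin Serpina3g (0.42 ± 0.16) was higher on all 4, as were 10.6% of all genes tested.

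Sorting and other hydrolases gave smaller or similar values. The 11 measured sorting genes of 12 had a median of -0.08. M6pr, the small mannose 6-phosphate receptor, had -0.15 ± 0.01 and Nagpa, which uncovers the mannose 6-phosphate tag, -0.20 ± 0.07. Vps29, a retromer subunit, had -0.18 ± 0.22 (-0.175). All 17 listed glycosidases were measured, with Glb1 and Neu1 of the partner list among them. Their median was -0.16 (-0.155), -0.39 in replicate 1 and -0.03 in replicate 2, close to the protease medians of -0.38 and -0.04. Lower on all 4 arrays were 6 glycosidases and higher was 1, beside 9.95% and 10.6% of all genes tested. Manba, a beta-mannosidase, had 0.44 ± 0.08 and Hexa, a beta-hexosaminidase subunit, -0.34 ± 0.10.

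**Figure D4:**
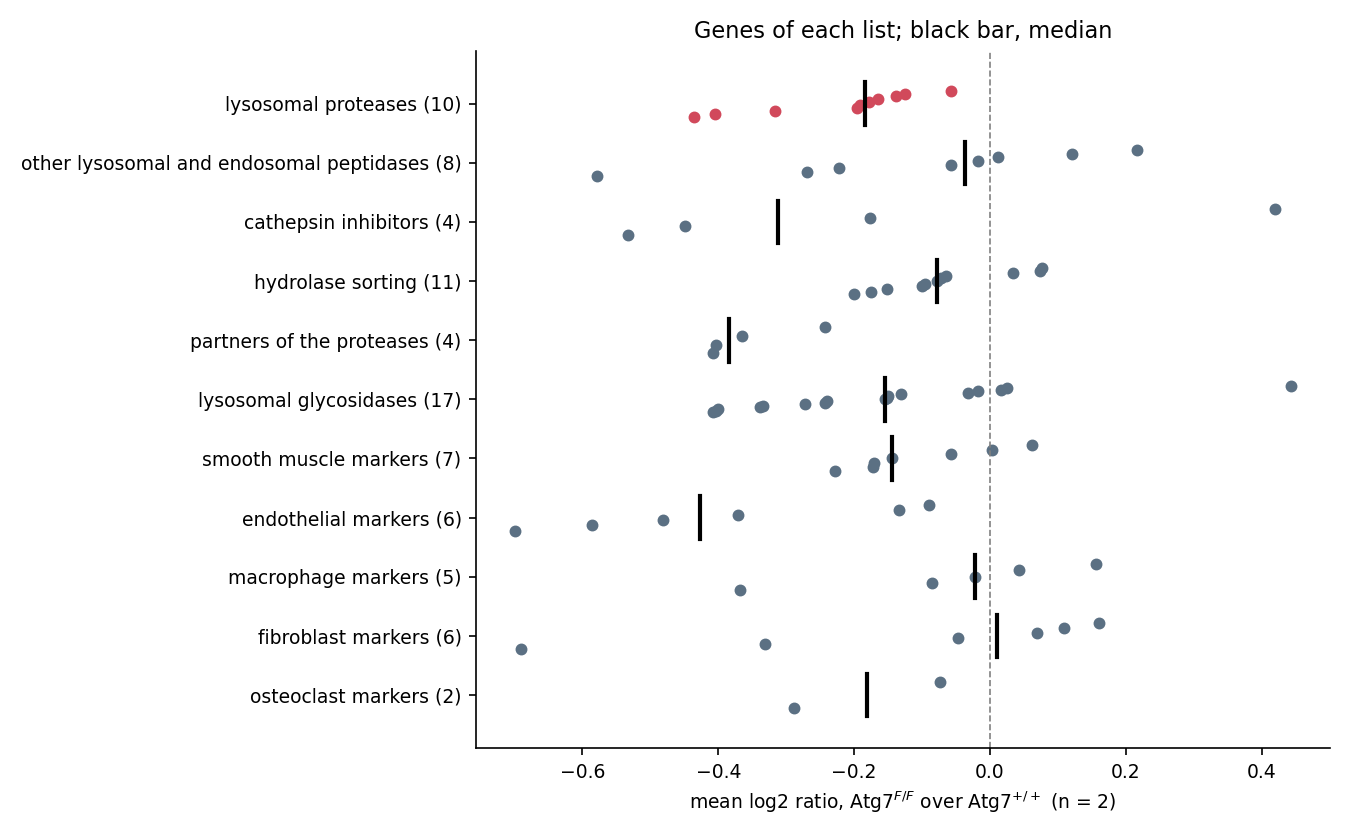
Mean log2 ratio of Atg7F/F over Atg7+/+ (horizontal axis) for each measured gene of the protease group (red) and of related and marker lists (grey), the number measured in brackets and the list median as a black bar. All 10 proteases lie below 0, as do all measured partners, endothelial markers and osteoclast markers, while the other lists fall on both sides. Glb1 and Neu1 are drawn both as partners and as glycosidases.

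The cultures were checked against markers of the labelled cell type and of others. Of 8 smooth muscle markers 7 were measured, with a median of -0.14 (-0.145), and Tagln, Acta2 and Smtn at -0.23, -0.17 and -0.17. Smtn depended on the dye, with -0.47 and -0.43 where Atg7F/F was in Cy5 but 0.14 and 0.08 where it was in Cy3. Lmod1 was at -0.06, Des at 0.06 and Cnn1 at 0.0035, while Myh11 had 0.25 in replicate 1 and -0.54 in replicate 2. Myocd did not pass the filter. Macrophages are rich in Ctss and other cathepsins, and 5 of 12 macrophage markers were measured, with a median of -0.02. Adgre1, Itgam, Ptprc, Aif1, Laptm5 and Mrc1 were not well above background in any channel. Tyrobp was so in 6 of 8 channels and did not pass the filter. Cd68, itself a lysosomal membrane protein, had -0.37 ± 0.09, Csf1r 0.16 ± 0.10 and Cd14 -0.09 ± 0.06. Fcer1g had -0.02 ± 0.02, and Lyz2 0.04 ± 0.77, with -0.50 in replicate 1 and 0.58 in replicate 2. The summed normalized signal of the 5 was 2051 and 4655 in Atg7F/F replicates 1 and 2, against 2674 and 3328 in Atg7+/+ replicates 1 and 2. Of 7 osteoclast markers, which bear on Ctsk, only Acp5 (-0.29 ± 0.43) and Nfatc1 (-0.07 ± 0.15) were measured, and Calcr, Ocstamp, Dcstamp, Mmp9 and Tnfrsf11a were not well above background in any channel.

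Endothelial and fibroblast markers were measured as well, and none passed the adjusted test. All 6 endothelial markers were measured, with a median of -0.43, and 5 were lower on all 4 arrays, where 9.95% of all genes tested were. The 5 were Pecam1 (-0.48 ± 0.10), Vwf (-0.70 ± 0.42), Cdh5 (-0.37 ± 0.15), Tek (-0.13 ± 0.08) and Kdr (-0.09 ± 0.03). Emcn had -0.59 ± 1.07, with 0.17 in replicate 1 and -1.34 in replicate 2. The summed signal of the 6 was 4304 and 4039 in Atg7F/F, against 4141 and 9193 in Atg7+/+ replicates 1 and 2. All 6 fibroblast markers were measured, with medians of -0.35 in replicate 1 and 0.29 in replicate 2, and with Cd34 at -0.69 ± 0.46, Dpt at -0.33 ± 0.34 and Pdgfra at 0.07 ± 0.02. Lum had 0.16 ± 0.47, Dcn 0.11 ± 0.62 and Pi16 -0.05 ± 0.91. Their summed signal was 7299 and 4494 in Atg7F/F, against 9246 and 5244 in Atg7+/+ cells. The part of these cells in the protease ratios was not tested.

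By Euclidean distance over the 4 array ratios, the genes nearest to the mean profile of the 10 proteases (-0.37, -0.35, -0.10 and -0.06) were Atp10a, at a distance of 0.070, Akr1c18, at 0.073, and Kank3, at 0.080. None of them is a lysosomal protease. Atp10a had a mean ratio of -0.23, Akr1c18 of -0.19 and Kank3 of -0.20.

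**Figure D5:**
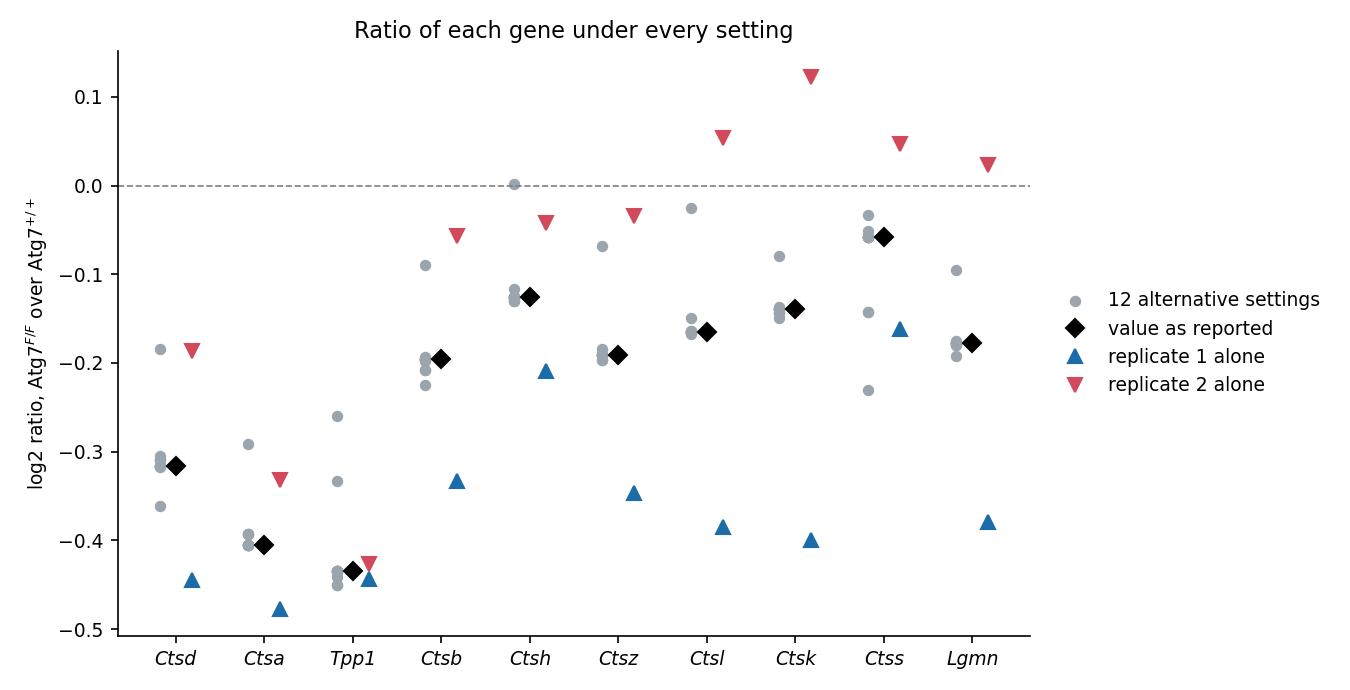
Log2 ratio of Atg7F/F over Atg7+/+ (vertical axis) of each protease gene as reported (black diamond), under 12 other ways of processing the arrays (grey) and in each replicate alone (blue up-triangle, replicate 1; red down-triangle, replicate 2). Tpp1 has nearly the same value in both replicates, and Ctsk, Ctsl, Ctss and Lgmn are on opposite sides of 0.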

How the data were processed

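Per the submitters' processing notes, the deposited scanner files come from Agilent Feature Extraction 10.1.1.1. They hold mean spot intensity and local background intensity per channel, per the file headers, not normalized. The deposited table holds log2 ratios, which equalled those of the software's processed intensities within 0.001 for 100% of single-spot probes. The dye of each genotype came from the labels, and all 4 arrays lay on 1 slide.

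Intensities were background-corrected with normexp (offset 50, which pulls ratios of dim spots towards 0) and loess-normalized in limma 3.58.1 (R 4.3.3). Dye-swapped arrays were averaged, since they share extracts, which left n = 2. A probe was kept if no spot was a non-uniformity outlier and if it was well above background in 1 genotype on all 4 arrays. Of 12367 genes tested, each was represented by its brightest probe, named through RefSeq accessions (25097 probes) or as in the files. The moderated test of limma had 3.18 degrees of freedom. The replicate block was part of the test, because the hybridisation pairs same-numbered extracts, whose deviations correlated at 0.18. The code was tested on simulated data. Promoter sequences are from RefSeq.

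The proteases and lists were chosen with earlier results of these data known. The naming rule took every protease, Atg7, up to 3 genes per list with the smallest p and the 3 genes nearest in profile. Neu1, Cst3, Lmod1, Des, Cnn1, Myh11, Lum, Dcn, Pi16, Ctsc, Ctsf, Ctso, Ctsw and Scpep1 were named after their values were seen. So were Fcer1g, Lyz2, Tyrobp, Tek, Kdr and Emcn. One gene that this rule names is not reported here.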

Additional observations from a re-analysis of the deposited data

How the results depend on the processing

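The number of genes called was 0 in the test as reported and in 9 of 12 alternatives. It was 9 with each array pair as a random block, 25 with the 4 arrays as independent and 1 with no replicate block and the extracts unpaired. None of the 10 proteases was called in any of them. The adjusted p of limma ranged from 0.069 to 1.00 (0.99998). The lowest was for Tpp1 with the 4 arrays as independent, which counts dye swaps of the same extracts as replicates. For Tpp1 it was 0.239 with array pairs as a random block and 0.9998 in the test as reported. The number of proteases lower on all 4 arrays was 4, between 3 and 5 in the other alternatives, but 0 with median centring, where 2.14% of all genes were. Median centring also turned Ctsh to 0.0022, took the median of the 10 to -0.08 and put Ctsd at -0.18, against -0.32 as reported. It also moved the median of all genes tested to 0.04, from 0.0034 as reported. The cause was not tested. Tpp1 ran from -0.45 to -0.26 and Ctsa from -0.41 to -0.29 over the alternatives. Ctss, near background, ran from -0.23 to -0.03. All other single-gene ratios kept their direction. Without one replicate, from 4 to 10 proteases were lower and from 0 to 1 higher on both remaining arrays, and the median ran from -0.38 to -0.04. Ctsk then ran from -0.40 to 0.12, Ctsl from -0.38 to 0.054, Ctss from -0.16 to 0.047 and Lgmn from -0.38 to 0.023, the higher value being without replicate 1. A single ratio per gene allows no test, so no count of called genes was made without a replicate.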
